A study of Homo sapiens with 28 samples.

Results

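Amino acid transporters of the solute carrier (SLC) families SLC1, SLC3, SLC6, SLC7, SLC36, SLC38 and SLC43 were followed in LNCaP cells under endoplasmic reticulum stress. The members were all genes of the deposited count tables whose symbol is a family name followed by A and a number, which gave 59 of 25369 genes. LNCaP is an established human line from metastatic prostate cancer, and RNA was counted in 28 libraries, 4 in each of 7 groups. Cells of all groups grew in RPMI 1640 with serum, were reverse transfected with an siRNA and were collected after 18 h of treatment. The groups DMSO siCtrl and TM siCtrl had a non-targeting siRNA with the solvent DMSO or with tunicamycin at 2.5 µg/mL. The group TM PERKi siCtrl had the non-targeting siRNA, tunicamycin and the PERK inhibitor GSK2606414 at 100 nM. The groups TM siPERK-1 and TM siPERK-3 had tunicamycin with either of 2 siRNA oligos against EIF2AK3, the gene of PERK, and TM siATF4-2 and TM siATF4-3 had tunicamycin with either of 2 oligos against ATF4. No group had a targeting siRNA or the inhibitor without tunicamycin. Per the series' design text the 4 libraries of a group came from independent experiments, all in 1 cell line.

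Tunicamycin blocks N-glycosylation, so that unfolded protein builds up in the endoplasmic reticulum. PERK is a sensor kinase of that compartment. It phosphorylates the initiation factor eIF2α, as do its relatives such as GCN2, which responds to amino acid shortage, and the phosphorylated factor favours translation of the transcription factor ATF4. ATF4 pairs with C/EBP family proteins on a composite site, the C/EBP-ATF response element (CARE), and amino acid transporters are among its known targets. The carriers themselves bring amino acids into the cell, exchange them across the plasma membrane or release them from lysosomes. SLC3A2, also called CD98, is a heavy chain with no transport activity of its own, and brings light chains of the SLC7 family, such as SLC7A5 and SLC7A11, to the cell surface.

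The core letters of the element, TGATGNAA, were searched on both strands in RefSeq windows of 300 bases around gene starts (assembly GRCh38.p14), of which 44 members had an entry. They were found in the windows of 6 members, SLC1A3, SLC1A4, SLC1A5, SLC38A1, SLC3A2 and SLC7A1, in 3.617% of all 35116 windows and in the windows of 4.457% of all 27305 genes. The stretches are shown because ATF4 was knocked down in 2 of the groups and the letters of the sites can be compared. Each runs 5′ to 3′ along the gene's strand, with the matching letters in capitals. In SLC1A4 and SLC3A2 the match is on the opposite strand and reads as its reverse complement.
SLC1A3 (chr5:36596357-36596386, plus strand): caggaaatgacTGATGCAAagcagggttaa
SLC1A4 (chr2:64989381-64989410, plus strand): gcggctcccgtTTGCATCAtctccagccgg
SLC1A5 (chr19:46784893-46784922, minus strand): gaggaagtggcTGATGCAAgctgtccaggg
SLC38A1 (chr12:46266502-46266531, minus strand): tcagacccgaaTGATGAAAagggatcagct
SLC3A2 (chr11:62881725-62881748, plus strand): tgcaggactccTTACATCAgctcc
SLC7A1 (chr13:29595663-29595692, minus strand): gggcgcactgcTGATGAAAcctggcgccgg
Counted from the start base as 0, the first matching base lies at -220 in SLC1A3, -97 in SLC1A5, -7 in SLC1A4, -4 in SLC38A1, 7 in SLC7A1 and 37 in SLC3A2. Of the 10 members that tunicamycin raised by 2-fold or more, 9 had an entry and 5 of these held the letters. The ER stress response element, searched as CCAAT, 9 bases of any kind and CCACG on both strands, was in the windows of 0 members and in 0.077% of all windows. A match is a description of letters, not of binding, and no match says only that these letters are not in that window. Members without an entry included SLC1A2, SLC38A3, SLC3A1, SLC43A3, SLC6A12, SLC6A15, SLC6A2, SLC6A3, SLC6A6, SLC7A11, SLC7A13, SLC7A2, SLC7A3 and SLC7A4.

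The libraries held 10794637 to 17253801 counts. Levels are CPM, the counts of a gene over the TMM-scaled library total, and RPKM is the same per kilobase of the deposited exon length. EIF2AK3 was at 80.0 to 95.2 CPM in TM siCtrl against 21.4 to 30.5 in TM siPERK-1 and 19.7 to 24.3 in TM siPERK-3. ATF4 was at 1479 to 1562 CPM in TM siCtrl, at 177 to 358 CPM with siATF4-2 and at 98.5 to 140 CPM with siATF4-3. With the PERK oligos ATF4 mRNA was at 1363 to 1461 CPM (siPERK-1) and 1111 to 1198 CPM (siPERK-3). All 9 luminal prostate markers were tested, with a summed level of 6173 to 7260 CPM in DMSO siCtrl. It was 3351 to 3669 CPM with tunicamycin alone, 2694 to 3014 with the inhibitor, 3203 to 3692 with the PERK oligos and 3920 to 4517 with the ATF4 oligos. Among them KLK3 had mean levels of 2636 CPM in DMSO siCtrl and 432 in TM siCtrl, while KRT8 (405 and 862) and KRT18 (385 and 806) were higher with tunicamycin. Basal and leukocyte markers summed to at most 1.55 CPM in any library and endothelial markers to 9.71 to 19.0 CPM, mostly VWF. Of the 5 fibroblast markers only 1, COL1A1, had enough counts to be tested, and COL1A2 had 0 counts in all libraries. The 5 summed to 17.1 to 21.2 CPM in DMSO siCtrl, nearly all from COL1A1. Their sum was 32.6 to 39.4 CPM with tunicamycin alone, 29.4 to 41.2 with the inhibitor or PERK oligos and 13.9 to 23.1 with the ATF4 oligos. This sum, in effect the level of COL1A1, was high and low in the same groups as several carriers described here. Its part in those changes was not tested. In bulk RNA, fewer cells of a kind and less RNA per cell cannot be told apart.

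Of the 59 members, 34 had enough counts to be tested. The other 25 had at most 13 counts in any library and 3 of them, SLC6A15, SLC6A5 and SLC7A3, had 0 counts in all libraries. These 25 included the second heavy chain SLC3A1 with its light chain partner SLC7A9, the light chains SLC7A10 and SLC7A13, the cationic relative SLC7A4, SLC1A6 and SLC1A7, SLC36A2 and SLC36A3, SLC38A8 and SLC38A11, and SLC43A3. They also included SLC6A2, SLC6A4, SLC6A7, SLC6A12, SLC6A13, SLC6A14, SLC6A17, SLC6A18 and SLC6A19, most of them carriers for neurotransmitters or for uptake in gut and kidney. Among the 34 tested members, 25 exceeded the count cutoff (0.733 CPM) in all 28 libraries. The other 9 (SLC1A2, SLC1A3, SLC38A3, SLC38A4, SLC38A5, SLC6A16, SLC6A3, SLC7A14 and SLC7A7) did not, so the counts of members below are a description and not evidence about the families.

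Per length, SLC38A2, the sodium-coupled neutral amino acid transporter known as SNAT2, led in unstressed cells at 59.7 ± 9.79 RPKM (SD, n = 4). SLC1A5, the glutamine carrier ASCT2, followed at 48.6 ± 3.04 and SLC3A2 at 46.0 ± 6.42 RPKM, and the latter 2 differed by less than 1 SD of SLC1A5. With tunicamycin SLC3A2 stood first at 491 ± 38.3 RPKM. SLC38A2 at 140 ± 8.61, SLC1A5 at 126 ± 8.33 and SLC7A11, the cystine-glutamate exchanger xCT, at 109 ± 5.92 RPKM came next. SLC7A1, SLC38A10 and SLC38A1 lay together at 50.7 to 54.2 RPKM, less than 1 SD apart for SLC7A1 and SLC38A10. SLC7A5, the large neutral amino acid carrier LAT1, was at 13.5 ± 0.876 RPKM in TM siCtrl, far below its heavy chain.

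The summed level of the 59 members was 1895, 1939, 1969 and 2154 CPM in the 4 DMSO siCtrl libraries and 5635, 5690, 5769 and 5527 in TM siCtrl. It was 6018 to 6201 CPM with the inhibitor, 4763 to 5249 with siPERK-1 and 4669 to 5259 with siPERK-3. With the ATF4 oligos it was 2534 to 3282 CPM (siATF4-2) and 2046 to 2256 (siATF4-3). The siATF4-3 libraries thus overlapped DMSO siCtrl, and all other tunicamycin groups lay above it. SLC3A2, SLC7A11 and SLC7A5 together made up 16.4% of the sum in DMSO siCtrl, 44.8% in TM siCtrl, 52.8% with the inhibitor and 26.0% with siATF4-3.

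**Figure D1:**
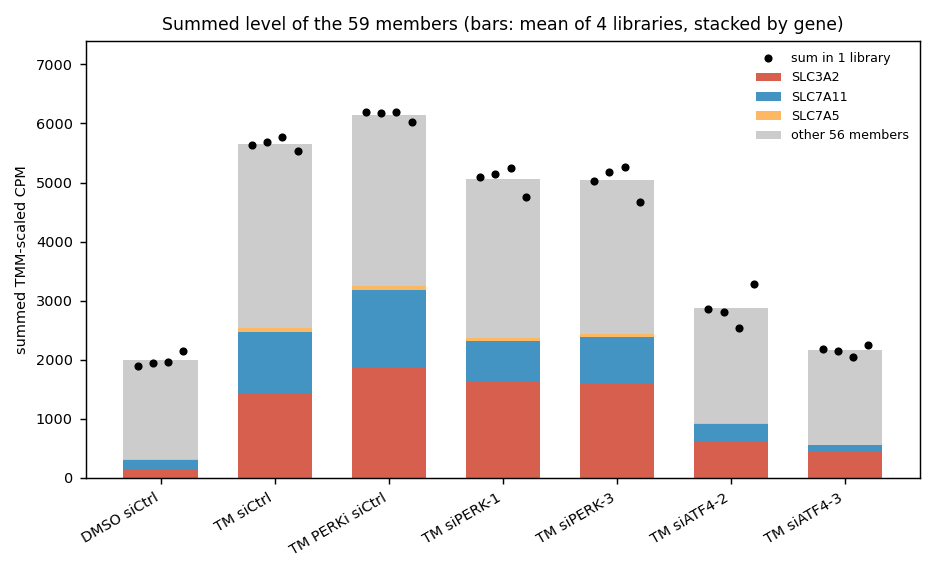
Summed TMM-scaled CPM of the 59 members in each group (bars: mean of 4 libraries, stacked as SLC3A2, SLC7A11, SLC7A5 and the other members; points: libraries). The TM siCtrl libraries sit at 5527 to 5769 CPM, and the siATF4-3 libraries at 2046 to 2256 overlap the DMSO siCtrl libraries at 1895 to 2154.

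Tunicamycin alone raised the heavy chain SLC3A2 and several of the abundant carriers and lowered a smaller set. Against DMSO siCtrl, 19 of the 34 tested members rose and 7 fell, 76.5% in all, where 69.0% of all genes tested were called, 34.3% higher and 34.7% lower. At 2-fold or more 10 members rose and 5 fell, where 8.49% of all genes tested rose and 7.27% fell that far. Those that fell were SLC6A6, SLC1A3, SLC38A3, SLC6A16 and SLC6A3. All but SLC6A6 failed to exceed the count cutoff in every library and had their highest mean in DMSO siCtrl. These may have passed the filter through that group, so the number of falls is no evidence of an excess. The median log2 change was 0.21 over the tested members and 0.01 over all genes tested. The groups did not overlap for 25 of the 34, against a background of 61.0%. The members that were not called were SLC1A2, SLC36A1, SLC38A4, SLC38A5, SLC43A1, SLC6A11, SLC7A7 and SLC7A8.

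The heavy chain changed most. SLC3A2 (hg19 chr11:62623484-62656355) was at 118, 124, 132 and 160 CPM in DMSO siCtrl and at 1521, 1373, 1515 and 1294 CPM in TM siCtrl. Each treated library thus stood far above each control, a log2 change of 3.42 ± 0.10 (SE) or 10.7-fold (adjusted p = 8.06e-20). Its light chains did not move as a block.

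SLC7A11 (hg19 chr4:139085248-139163503) rose from 165, 150, 164 and 227 CPM to 967, 1096, 1049 and 1079 CPM, a log2 change of 2.57 ± 0.19 (adjusted p = 5.34e-11). Its exons share 2.86% of their length with SLC7A11-AS1 on the opposite strand. SLC7A5 (hg19 chr16:87863629-87903100) rose from 15.9, 15.3, 16.6 and 21.1 CPM to 64.96, 58.2, 64.0 and 57.2 CPM, a log2 change of 1.82 ± 0.13 (adjusted p = 7.14e-12). Reads of SLC7A5 may be shared with its near-identical copies, of which SLC7A5P2 was at 0.944 to 1.61 CPM and SLC7A5P1 at 0.133 to 0.357 CPM in TM siCtrl, and SLC7A5P2 was not called with tunicamycin (with siATF4-3 it was lower). SLC7A6, which exchanges cationic for neutral amino acids, rose by only 0.17 ± 0.06, with overlapping groups, and was not called without DMSO siCtrl replicate 1 (adjusted p = 0.0682). SLC7A8, the light chain LAT2, was at 105 to 131 CPM without and 127 to 137 CPM with tunicamycin, a log2 difference of 0.11 ± 0.06 (adjusted p = 0.0975), which was called without DMSO siCtrl replicate 2 (0.14, adjusted p = 0.0408). SLC7A7 stayed under 1 CPM in all of these libraries.

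SLC6A9, the glycine carrier GlyT1, had the second largest rise. It was at 21.4, 21.5, 23.1 and 29.96 CPM in DMSO siCtrl and at 168, 162, 175 and 161 CPM in TM siCtrl, a log2 change of 2.79 ± 0.16 (adjusted p = 2.66e-13). The treated libraries lay close together and far above the controls. A stretch of 1.19% of its exon length overlaps CCDC24 on the opposite strand. SLC6A20, a carrier of proline, rose at a low level from 1.87, 2.27, 2.51 and 2.96 to 4.10, 3.92, 4.50 and 4.91 CPM (log2 change 0.85 ± 0.17, adjusted p = 3.15e-05).

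The neutral amino acid exchangers of the SLC1 family rose and the glutamate carriers of the same family did not. SLC1A4 (ASCT1), a carrier of serine, alanine and cysteine, was at 15.9, 16.9, 17.3 and 20.2 CPM and reached 64.96, 66.9, 59.3 and 59.3 CPM, a log2 change of 1.83 ± 0.10 (adjusted p = 3.33e-18). SLC1A5 was at 145, 150, 162 and 166 CPM and reached 434, 390, 420 and 376 CPM, a log2 change of 1.38 ± 0.11 (adjusted p = 5.93e-11). The opposite held for SLC1A1, a carrier of glutamate and cysteine, which fell from 16.7, 19.8, 12.6 and 15.6 to 8.51, 9.15, 5.95 and 9.16 CPM (log2 change -0.97 ± 0.16, adjusted p = 3.57e-06). SLC1A3, a glutamate carrier best known from glia, fell as well, with libraries between 1.49 and 3.54 CPM in DMSO siCtrl and between 0.416 and 1.13 CPM in TM siCtrl, and the glutamate carrier SLC1A2 at 0.833 to 1.38 CPM in TM siCtrl was not called.

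In the SLC38 family 6 of 9 tested members rose and 1 fell. SLC38A2 was at 268, 260, 276 and 363 CPM in DMSO siCtrl and at 632, 731, 671 and 698 CPM in TM siCtrl (log2 change 1.23 ± 0.08). SLC38A1, a close relative that also takes up glutamine, went from 232, 232, 242 and 246 CPM to 478, 539, 503 and 503 CPM (1.09 ± 0.05). SLC38A10 went from 108, 113, 103 and 109 CPM to 305, 254, 276 and 265 CPM (1.35 ± 0.06). All 3 were separate from the controls in every library, with adjusted p of 3.47e-13, 4.17e-22 and 1.93e-23. SLC38A7, a glutamine carrier of the lysosome, rose by 0.79 ± 0.07, SLC38A6 by 0.55 ± 0.11 and SLC38A9, the lysosomal arginine sensor upstream of mTORC1, by 0.32 ± 0.07 on the log2 scale. SLC38A3 fell at a level under 1 CPM.

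SLC7A1, the cationic carrier CAT1 for arginine and lysine, rose from 176, 195, 198 and 225 CPM to 377, 402, 416 and 396 CPM, a log2 change of 1.00 ± 0.06 (adjusted p = 5.57e-19). Its relative SLC7A2 rose by only 0.25 ± 0.07 and SLC7A14 by 0.77 ± 0.25, the latter at about 1 CPM. SLC43A2, a facilitative carrier of large neutral amino acids, rose by 0.22 ± 0.06 and SLC36A4, a proton-coupled carrier, by 0.20 ± 0.09. The SLC36A4 call (adjusted p = 0.0423) was lost without DMSO siCtrl replicate 3 or 4 or without TM siCtrl replicate 1 or 2 (adjusted p = 0.0517 to 0.15), and with DESeq2, without the low-count filter and with only the compared groups in the fit.

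The clearest fall was in SLC6A6, the taurine carrier. It was at 12.2, 12.9, 12.1 and 12.6 CPM in DMSO siCtrl and at 3.15, 2.38, 2.25 and 3.32 CPM in TM siCtrl, a log2 change of -2.16 ± 0.14 (adjusted p = 5.37e-17). A stretch of 3.46% of its exon length overlaps GRIP2 on the opposite strand. SLC6A8, the creatine carrier, fell from 119, 137, 123 and 110 CPM to 82.1, 78.0, 72.6 and 74.2 CPM (log2 change -0.67 ± 0.07, adjusted p = 2.77e-10). SLC6A10P, a near-identical copy of it that could share its reads, fell as well, by 0.77 ± 0.18, and was lower again with the inhibitor. SLC6A3, the dopamine carrier, and the orphan carrier SLC6A16 fell from levels of about 1 CPM. Within the SLC6 family SLC6A9 had the largest rise and SLC6A6 the largest fall.

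**Figure D2:**
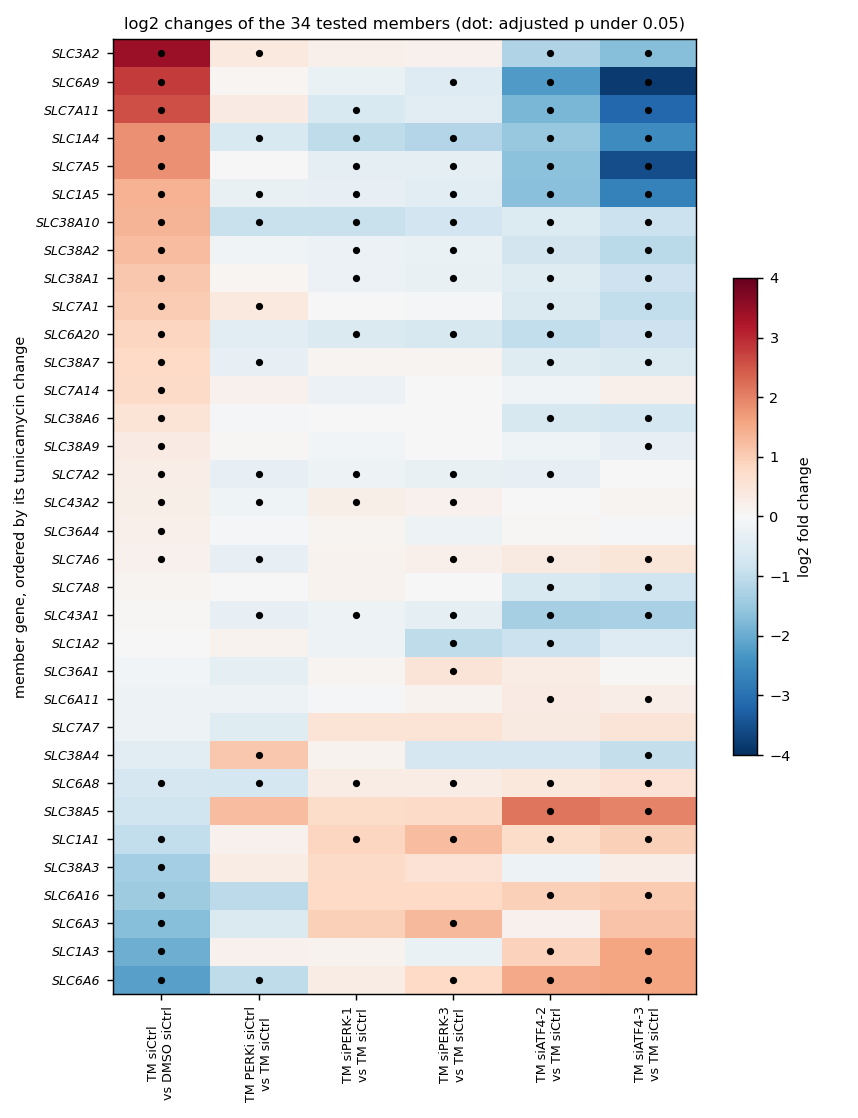
Log2 fold changes of the 34 tested members (rows, ordered by their tunicamycin change) in 6 comparisons (columns); red is higher, blue lower, and a dot marks an adjusted p under 0.05. SLC3A2 at the top rose by 3.42, SLC6A6 at the bottom fell by 2.16, and the columns of the ATF4 oligos are blue over most members at the top.

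Knockdown of ATF4 lowered each of the 10 members that tunicamycin had raised by 2-fold or more. Against TM siCtrl, 17 of 34 tested members were lower and 8 higher with siATF4-2, 73.5% in all, where 55.6% of all genes tested were called and 27.2% were lower. With siATF4-3 the members again numbered 17 lower and 8 higher, and the background was 61.9% called and 30.7% lower. The median log2 change of the tested members was -0.41 with siATF4-2 and -0.43 with siATF4-3, where that of all genes tested was 0.00 with either. At 2-fold or more 7 and 8 members were lower, where 4.49% and 6.62% of all genes tested fell that far. Members lower with both oligos numbered 15 and members higher with both 8. Of the 15, 13 had risen with tunicamycin, and of the 8, 5 had fallen with it. The shares of all genes tested with these joint patterns were not counted, so the numbers describe the members only. These comparisons and the tunicamycin comparison share the TM siCtrl libraries, so opposite signs between them are not independent.

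SLC6A9 fell most. It was at 33.97, 29.1, 24.8 and 52.5 CPM with siATF4-2 and at 10.6, 11.5, 7.98 and 17.0 CPM with siATF4-3. Its log2 changes were -2.26 ± 0.16 and -3.81 ± 0.18 (adjusted p = 3.47e-11 and 2.33e-14). All 4 siATF4-3 libraries were below all DMSO siCtrl libraries.

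For SLC7A11 the libraries were at 255, 284, 191 and 445 CPM with siATF4-2 and at 110, 106, 91.2 and 164 CPM with siATF4-3, log2 changes of -1.84 ± 0.19 and -3.15 ± 0.20. SLC7A5 was at 21.4, 16.6, 14.2 and 25.7 CPM and at 4.50, 5.19, 3.32 and 7.77 CPM, log2 changes of -1.65 ± 0.14 and -3.54 ± 0.17. SLC3A2 was at 646, 558, 569 and 683 CPM and at 467, 447, 418 and 424 CPM, log2 changes of -1.22 ± 0.09 and -1.70 ± 0.09. In the 3 genes all 8 libraries lay under TM siCtrl, and the adjusted p were at most 2.44e-08. The heavy chain stayed above DMSO siCtrl in all 8 libraries, whereas SLC7A5 with siATF4-3 was below it in all 4.

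SLC1A5 was at 130, 104, 104 and 170 CPM with siATF4-2 and 61.8, 58.7, 52.6 and 73.6 CPM with siATF4-3, log2 changes of -1.67 ± 0.11 and -2.71 ± 0.12. SLC1A4 was at 20.8, 21.2, 17.6 and 28.5 CPM and at 11.7, 11.1, 7.80 and 12.8 CPM, log2 changes of -1.51 ± 0.10 and -2.52 ± 0.11. Both exchangers were lower than in unstressed cells in every siATF4-3 library. SLC7A1 was at 263, 274, 247 and 292 CPM and at 186, 205, 199 and 215 CPM (log2 changes -0.56 ± 0.06 and -0.98 ± 0.06), and its siATF4-3 libraries overlapped DMSO siCtrl.

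In the SLC38 family 3 members of the raised set were lower as well. SLC38A2 was at 389, 442, 349 and 474 CPM with siATF4-2 and 322, 322, 315 and 341 CPM with siATF4-3 (log2 changes -0.72 ± 0.08 and -1.07 ± 0.08). SLC38A1 was at 368, 402, 328 and 356 CPM and at 298, 286, 279 and 272 CPM (-0.48 ± 0.05 and -0.83 ± 0.05). SLC38A10 was at 198, 174, 181 and 206 CPM and at 155, 153, 142 and 162 CPM (-0.54 ± 0.06 and -0.85 ± 0.06). All of these libraries lay under TM siCtrl, and for SLC38A1 and SLC38A10 all lay above DMSO siCtrl. SLC38A6 was lower by 0.65 and 0.72 and SLC38A7 by 0.48 and 0.57 on the log2 scale with the respective oligos.

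**Figure D3:**
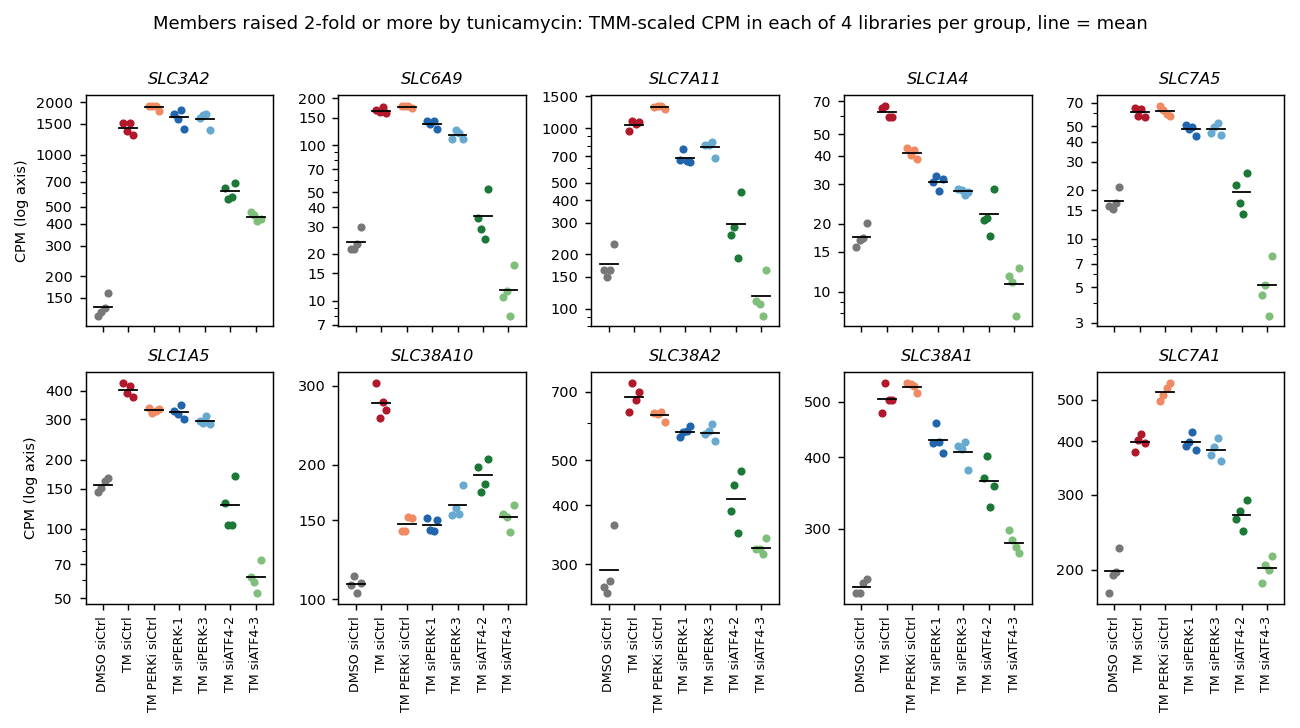
TMM-scaled CPM (log axis) of the 10 members that tunicamycin raised by 2-fold or more, in each of 4 libraries per group, with the group mean as a line. SLC3A2 lies at 118 to 160 CPM in DMSO siCtrl, 1294 to 1521 in TM siCtrl and 418 to 467 in TM siATF4-3, and SLC38A10 lies at 142 to 180 CPM with the inhibitor and the PERK oligos and at 142 to 162 with siATF4-3.

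SLC43A1 and SLC7A8 were lower with ATF4 knockdown and had not been called with tunicamycin, although SLC7A8 was called higher without DMSO siCtrl replicate 2 (adjusted p = 0.0408). SLC43A1, the facilitative carrier LAT3 that is known for high expression in prostate, was at 108, 118, 118 and 102 CPM in DMSO siCtrl and 119, 112, 124 and 109 CPM in TM siCtrl (log2 difference 0.06 ± 0.07, adjusted p = 0.48). It was at 46.5, 38.8, 42.4 and 56.4 CPM with siATF4-2 and 44.0, 46.6, 47.4 and 48.8 CPM with siATF4-3, log2 changes of -1.34 ± 0.08 and -1.31 ± 0.08. The 8 libraries lay below every library of the unstressed and stressed controls. SLC7A8 was at 92.7, 77.0, 80.4 and 94.6 CPM and at 76.2, 69.1, 75.2 and 81.8 CPM, log2 changes of -0.62 ± 0.06 and -0.81 ± 0.06. SLC6A20 was at 2.05, 2.46, 1.55 and 2.64 CPM and at 2.70, 2.20, 2.78 and 2.19 CPM (log2 changes -0.998 ± 0.185 and -0.82 ± 0.18), overlapping the DMSO siCtrl values.

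Members that were higher with ATF4 knockdown included most of those that tunicamycin had lowered. SLC6A6 was at 7.45, 8.55, 8.86 and 7.05 CPM with siATF4-2 and 7.30, 8.25, 7.89 and 9.79 CPM with siATF4-3, log2 changes of 1.52 ± 0.16 and 1.58 ± 0.16 (adjusted p = 6.31e-11 and 1.46e-11). These values lay between TM siCtrl and DMSO siCtrl with no overlap. SLC1A1 was at 12.7, 15.4, 12.0 and 14.4 CPM and at 15.0, 19.0, 13 and 16.8 CPM (log2 changes 0.72 ± 0.17 and 0.96 ± 0.16). SLC6A8 was higher by 0.41 ± 0.07 and 0.57 ± 0.07 and SLC7A6 by 0.35 ± 0.06 and 0.48 ± 0.06 on the log2 scale. SLC7A6, whose exons share 12.4% of their length with SLC7A6OS on the opposite strand, was the member that rose with tunicamycin and rose further with both ATF4 oligos.

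At lower levels, SLC38A5, a glutamine carrier, was at 0.0594 to 0.238 CPM in TM siCtrl, 0.480 to 0.886 CPM with siATF4-2 and 0.284 to 0.729 CPM with siATF4-3. It exceeded the count cutoff in 4 libraries, with none in 5 groups, and its mean was highest with the ATF4 oligos. SLC38A5 may thus have been tested only through groups where it was high, so its calls are a description and not evidence. SLC1A3 was higher by 0.94 ± 0.37 with siATF4-2 (adjusted p = 0.0296) and 1.58 ± 0.34 with siATF4-3, and SLC6A16 by 0.95 ± 0.41 and 1.04 ± 0.41. The siATF4-2 call of SLC1A3 was lost without TM siCtrl replicate 1, 2 or 3 or siATF4-2 replicate 2 (adjusted p = 0.0644 to 0.117). The SLC6A16 call with siATF4-2 was lost without TM siCtrl replicate 1 or 3 or siATF4-2 replicate 1 or 4 (adjusted p = 0.0793 to 0.181) and with upper-quartile factors, no filter or DESeq2 (adjusted p = 0.0555 to 0.064), and that with siATF4-3 without TM siCtrl replicate 3 or siATF4-3 replicate 1 or 2 (adjusted p = 0.0611 to 0.142). SLC6A11, a GABA carrier at 10.6 to 17.1 CPM in these groups, was higher by 0.34 ± 0.10 and 0.28 ± 0.11, and its siATF4-3 call was lost without TM siCtrl replicate 3 or 4 or siATF4-3 replicate 1 or 2 (adjusted p = 0.0504 to 0.142). Called with a single oligo were SLC38A9, lower by 0.34 ± 0.07 with siATF4-3, SLC7A2, lower by 0.34 ± 0.07 with siATF4-2, SLC38A4, lower by 0.96 ± 0.41 with siATF4-3, and SLC1A2, lower by 0.87 ± 0.35 with siATF4-2. The SLC38A4 call was lost without TM siCtrl replicate 3 or 4 or siATF4-3 replicate 1, 2 or 3 (adjusted p = 0.0611 to 0.156), and without the low-count filter, with limma-voom and with only the compared groups (adjusted p = 0.0665 to 0.134). The SLC1A2 call was lost without TM siCtrl replicate 3 or 4 or siATF4-2 replicate 3 or 4 (adjusted p = 0.0548 to 0.137) and with DESeq2 (adjusted p = 0.0576).

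The 2 ATF4 oligos gave different member levels. In the direct comparison 11 of 34 tested members were higher with siATF4-2 than with siATF4-3 and 1 was lower, 35.3% in all, where 14.7% of all genes tested were called and 8.53% were higher with siATF4-2. The differences were 1.88 ± 0.19 for SLC7A5, 1.56 ± 0.20 for SLC6A9, 1.32 ± 0.19 for SLC7A11, 1.04 ± 0.12 for SLC1A5 and 1.01 ± 0.12 for SLC1A4 on the log2 scale, with adjusted p of at most 6.06e-05. ATF4 itself was 1.06 ± 0.16 higher with siATF4-2. The member that was lower was SLC7A2, at 50.2 to 66.4 CPM with siATF4-2 and 68.9 to 77.5 with siATF4-3. Within siATF4-2, replicate 4 had the highest ATF4 level (358 CPM, against 177 to 221 in the others) and the highest level of 9 of the 10 members that tunicamycin raised by 2-fold or more. Without that library 25 members were called with siATF4-2 against TM siCtrl, 23 of them among the 25 called with it. Within siATF4-3, replicate 4 likewise had the highest ATF4 level (140 CPM) and the highest level of 8 of the 10. In DMSO siCtrl, with no ATF4 siRNA, replicate 4 was also highest for ATF4 (723 CPM, against 539.5 to 614 in the others) and for 9 of the 10, while replicate 4 was lowest for 5 in TM siCtrl and for 7 with the inhibitor and with each PERK oligo. The part of residual ATF4 in these differences was not tested.

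Members were also compared with unstressed cells when tunicamycin was given with ATF4 knocked down, a comparison in which the treatment and the siRNA differ together. The mean of both oligos was 1.96 ± 0.09 above DMSO siCtrl for SLC3A2, 0.66 ± 0.05 for SLC38A10 and 0.43 ± 0.04 for SLC38A1 on the log2 scale. It was 1.26 ± 0.06 below for SLC43A1, 0.82 ± 0.09 for SLC1A5, 0.78 ± 0.14 for SLC7A5, 0.61 ± 0.10 for SLC6A6 and 0.60 ± 0.05 for SLC7A8. SLC7A11 (0.07 ± 0.16, adjusted p = 0.718), SLC6A9 (-0.24 ± 0.16, adjusted p = 0.202) and SLC1A4 (-0.18 ± 0.09, adjusted p = 0.0902) were not called. Without siATF4-2 replicate 4 SLC6A9 was called lower (-0.37, adjusted p = 0.0107), as was SLC1A4 (-0.26, adjusted p = 0.00573), which was also called without siATF4-3 replicate 4 (-0.23, adjusted p = 0.0403). In all, 11 members were higher and 11 lower than in DMSO siCtrl, 64.7% of those tested, where 62.7% of all genes tested were called. The members were thus called about as often as all genes tested.

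With the PERK oligos fewer members were called than with the ATF4 oligos, and the same held for all genes tested. Against TM siCtrl, 3 of 34 tested members were higher and 10 lower with siPERK-1, 38.2% where 26.4% of all genes tested were called. With upper-quartile scaling the split was 4 higher and 8 lower. With siPERK-3 it was 7 higher and 11 lower, 52.9% where 26.8% of all genes tested were called. Lower with both oligos were 9 members, SLC1A4, SLC1A5, SLC38A1, SLC38A10, SLC38A2, SLC43A1, SLC6A20, SLC7A2 and SLC7A5. Higher with both were SLC1A1, SLC43A2 and SLC6A8. The background shares are of calls in either direction. None is set beside the splits or the calls with both oligos, so these describe the members only. With siPERK-1 SLC43A1 (-0.20 ± 0.07) was not called without TM siCtrl replicate 1 or 3 or siPERK-1 replicate 1, 2 or 4 (adjusted p = 0.0692 to 0.114), nor with upper-quartile factors (adjusted p = 0.0577). SLC7A2 (-0.20 ± 0.07) was not called there without TM siCtrl replicate 2 or 4 or siPERK-1 replicate 1, 3 or 4 (adjusted p = 0.0585 to 0.169). SLC6A20 (-0.59 ± 0.17) was not called without siPERK-1 replicate 3 (adjusted p = 0.0583), nor SLC43A2 with siPERK-3 (0.18 ± 0.06) without siPERK-3 replicate 4 (adjusted p = 0.0597). With siPERK-3 alone SLC36A1 was higher by 0.51 ± 0.13 and SLC7A6 by 0.20 ± 0.06. SLC6A3 was higher with it (1.30 ± 0.50) at under 1 CPM, a call lost without any 1 of the 8 libraries (adjusted p = 0.0547 to 0.12) and without the low-count filter (adjusted p = 0.0593). SLC1A2 was lower with it (-1.01 ± 0.36), a call lost without TM siCtrl replicate 3 or 4 or siPERK-3 replicate 1, 2 or 3 (adjusted p = 0.0605 to 0.108) and with DESeq2 (adjusted p = 0.0513). Between the oligos 1 of 34 members differed, SLC36A4, higher by 0.31 ± 0.09 with siPERK-1, where 4.73% of all genes tested were called. The call was lost without any of siPERK-1 replicates 1 and 3 and siPERK-3 replicates 1, 2 and 4 (adjusted p = 0.0732 to 0.15). It was also lost with DESeq2, without the low-count filter and with only the compared groups (adjusted p = 0.0587 to 0.0741). With the replicate number as a block in the fit 5 members were called, 2 higher and 3 lower with siPERK-1.

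SLC1A4 had the largest decrease. It was at 30.6, 32.7, 27.8 and 31.7 CPM with siPERK-1 and at 28.6, 28.4, 26.8 and 27.6 CPM with siPERK-3, log2 changes of -1.03 ± 0.09 and -1.17 ± 0.09 (adjusted p = 2.23e-10 and 1.77e-11). SLC38A10 was at 152, 143, 142 and 150 CPM and at 155, 160, 155 and 180 CPM, log2 changes of -0.90 ± 0.06 and -0.76 ± 0.06 (adjusted p = 5.9e-16 and 8.97e-14). Both members lay below all TM siCtrl and above all DMSO siCtrl libraries. SLC1A1 was higher, at 15.5, 16.1, 12.7 and 15.4 CPM and at 20.1, 22.8, 15.1 and 18.9 CPM, log2 changes of 0.86 ± 0.16 and 1.22 ± 0.16, which placed it among or above the DMSO siCtrl values.

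The heavy chain was not called. SLC3A2 was at 1712, 1608, 1811 and 1403 CPM with siPERK-1 and at 1623, 1699, 1710 and 1379 CPM with siPERK-3, log2 differences of 0.20 ± 0.09 (adjusted p = 0.112, 95% interval 0.02 to 0.37) and 0.17 ± 0.09 (adjusted p = 0.176, interval -0.01 to 0.34). Without siPERK-1 replicate 4, its lowest library, the difference was 0.26 and was called (adjusted p = 0.0354). SLC7A11 was at 668, 764, 661 and 652 CPM with siPERK-1, a log2 change of -0.61 ± 0.18 (adjusted p = 0.0164). With siPERK-3 it was at 808, 810, 840 and 688 CPM, a log2 difference of -0.41 ± 0.18 that missed the threshold in the fit over all libraries (adjusted p = 0.101), though its libraries lay under all TM siCtrl libraries. With only the compared groups in the fit this difference was -0.42 and was called (adjusted p = 8.23e-06).

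SLC7A5 was at 50.7, 48.1, 49.8 and 43.7 CPM with siPERK-1 and at 45.7, 49.6, 52.5 and 44.1 CPM with siPERK-3, log2 changes of -0.34 ± 0.12 and -0.35 ± 0.12 (adjusted p = 0.0395 and 0.0393). Its libraries lay under TM siCtrl in all 8 cases. The siPERK-1 call was lost without any of siPERK-1 replicates 1 to 4 or TM siCtrl replicates 1 to 3 (adjusted p = 0.0529 to 0.109), and the siPERK-3 call without siPERK-3 replicate 1, 2 or 4 or TM siCtrl replicate 1, 2 or 3 (adjusted p = 0.0542 to 0.111). Both were also lost with DESeq2 and without the low-count filter (adjusted p = 0.0593 to 0.0669), and the siPERK-1 call with upper-quartile factors (adjusted p = 0.0536). SLC6A9 was at 143, 137, 143 and 126 CPM with siPERK-1 (log2 difference -0.28 ± 0.14, adjusted p = 0.15) and at 110, 126, 119 and 110 CPM with siPERK-3 (-0.52 ± 0.14, adjusted p = 0.0086). The siPERK-1 libraries lay under all TM siCtrl libraries, and with only the compared groups in the fit the difference was called (adjusted p = 0.000132). SLC1A5 was lower by 0.33 ± 0.11 and 0.46 ± 0.11, and its siPERK-1 call was lost without siPERK-1 replicate 2 or 4 or TM siCtrl replicate 1 or 3 (adjusted p = 0.053 to 0.0713).

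SLC38A1 was lower by 0.24 ± 0.05 with siPERK-1 and 0.31 ± 0.05 with siPERK-3 on the log2 scale, and SLC38A2 by 0.25 ± 0.08 with either. The SLC38A2 calls were lost without TM siCtrl replicate 2, siPERK-1 replicate 1 or siPERK-3 replicate 4 (adjusted p = 0.0584 to 0.0803). SLC7A1 was at 382 to 420 CPM with siPERK-1 and 360 to 407 CPM with siPERK-3, within and around the TM siCtrl values, and was not called. SLC6A8 was higher by 0.30 ± 0.07 with each oligo. SLC6A6 was at 3.20, 3.34, 2.55 and 4.71 CPM with siPERK-1 (log2 difference 0.30 ± 0.18, adjusted p = 0.219) and at 5.67, 4.94, 3.23 and 5.39 CPM with siPERK-3 (0.79 ± 0.17, adjusted p = 0.000511). Both groups overlapped TM siCtrl.

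Given as a share of the tunicamycin rise, the mean of a group minus the DMSO siCtrl mean over the same difference in TM siCtrl, the knockdowns left different amounts. No group had these oligos without tunicamycin, so any effect of an oligo on the unstressed level is part of its share. The shares are from group means and carry no error. For SLC38A10 23.2% and 32.5% of the rise was left with siPERK-1 and siPERK-3, and 48.9% and 26.8% with siATF4-2 and siATF4-3. For SLC1A4 the shares were 29.2% and 22.8% with the PERK oligos and 9.91% and -14.9% with the ATF4 oligos, where a negative share is a level below DMSO siCtrl. For SLC7A11 they were 58.5% and 70.01% against 13.5% and -6.74%. SLC3A2 kept 116% and 114% with the PERK oligos and 37.2% and 23.6% with the ATF4 oligos. SLC38A10 and SLC1A4 were thus the members of the 10 with under 50% of the rise left with both PERK oligos.

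Compared directly, the mean of both ATF4 oligos and the mean of both PERK oligos differed for 22 of 34 tested members, 7 higher and 15 lower with ATF4 knockdown, 64.7% where 63.9% of all genes tested were called. The largest differences were in SLC6A9 (-2.63 ± 0.12), SLC7A5 (-2.25 ± 0.11), SLC7A11 (-1.98 ± 0.14), SLC1A5 (-1.80 ± 0.08) and SLC3A2 (-1.64 ± 0.07) on the log2 scale. SLC43A1 (-1.05 ± 0.06), SLC1A4 (-0.92 ± 0.08) and SLC7A8 (-0.78 ± 0.04) were also lower with ATF4 knockdown. SLC6A6 was higher by 1.01 ± 0.11 and SLC38A10 by 0.14 ± 0.04. SLC38A10 was the member of the 10 raised ones that was lower with PERK than with ATF4 knockdown, though the groups overlapped.

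The inhibitor left most of the raised carriers high. Against TM siCtrl, 3 of 34 tested members were higher and 10 lower with GSK2606414, 38.2%, where 35.7% of all genes tested were called in either direction. SLC3A2 was at 1901, 1894, 1912 and 1778 CPM, all above TM siCtrl, a log2 change of 0.39 ± 0.09 (adjusted p = 0.00124). SLC7A1 was at 498, 513, 532 and 548 CPM, also above all TM siCtrl libraries, a log2 change of 0.39 ± 0.06 (adjusted p = 3.46e-07). SLC7A11 was at 1311, 1329, 1334 and 1280 CPM, above all TM siCtrl libraries, with a log2 difference of 0.33 ± 0.18 that missed the threshold in the fit over all libraries (adjusted p = 0.176). With only the compared groups in the fit the difference was 0.32 and was called (adjusted p = 8.78e-07).

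SLC7A5 at 67.2, 62.9, 59.7 and 58.1 CPM did not differ detectably with the inhibitor (log2 difference 0.02 ± 0.12, adjusted p = 0.922, 95% interval -0.22 to 0.26). SLC6A9 was at 178, 180, 178 and 173 CPM (0.09 ± 0.14, adjusted p = 0.676). SLC38A1 was at 539, 536, 532 and 516 CPM (0.07 ± 0.05, adjusted p = 0.28) and SLC38A2 at 630, 627, 632 and 604 CPM (-0.13 ± 0.08, adjusted p = 0.217). These 4 members overlapped TM siCtrl, and with only the compared groups in the fit SLC38A2 was called lower (-0.14, adjusted p = 0.0151).

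A smaller set was lower with the inhibitor. SLC38A10 was at 142, 142, 153 and 152 CPM, below all TM siCtrl libraries, a log2 change of -0.90 ± 0.06 (adjusted p = 3.76e-16). SLC1A4 was at 43.6, 40.3, 42.3 and 38.9 CPM, a log2 change of -0.60 ± 0.09 (adjusted p = 2.21e-06). SLC1A5 was at 335, 320, 326 and 333 CPM, a log2 change of -0.30 ± 0.11 (adjusted p = 0.0283) that was not called without TM siCtrl replicate 1 or 3 or TM PERKi siCtrl replicate 2 or 3 (adjusted p = 0.0591 to 0.0828). Of the members raised by tunicamycin, SLC1A4, SLC1A5, SLC38A10 and SLC7A2 were lower with the inhibitor and with both PERK oligos. SLC38A7, SLC43A2 and SLC7A6 were lower with the inhibitor without being lower with either PERK oligo. The SLC43A2 call was lost without TM siCtrl replicate 3 or 4 or TM PERKi siCtrl replicate 1, 2 or 3 (adjusted p = 0.051 to 0.137), and with DESeq2 (adjusted p = 0.0555).

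The taurine and creatine carriers fell further. SLC6A6 was at 1.097, 1.27, 1.496 and 1.57 CPM, below all TM siCtrl libraries, a log2 change of -1.01 ± 0.22 (adjusted p = 0.000299). SLC6A8 was at 50.8, 52.5, 42.99 and 43.3 CPM, a log2 change of -0.70 ± 0.08 (adjusted p = 4.9e-09). SLC38A4, a carrier of neutral and cationic amino acids, was higher at 4.75, 5.52, 6.26 and 5.23 CPM against 1.37, 1.61, 3.78 and 3.92 CPM in TM siCtrl, a log2 change of 1.07 ± 0.31 (adjusted p = 0.00818). TM siCtrl replicates 1 and 2 were the low ones of its control. SLC43A1 was lower by 0.32 ± 0.07 on the log2 scale.

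**Figure D4:**
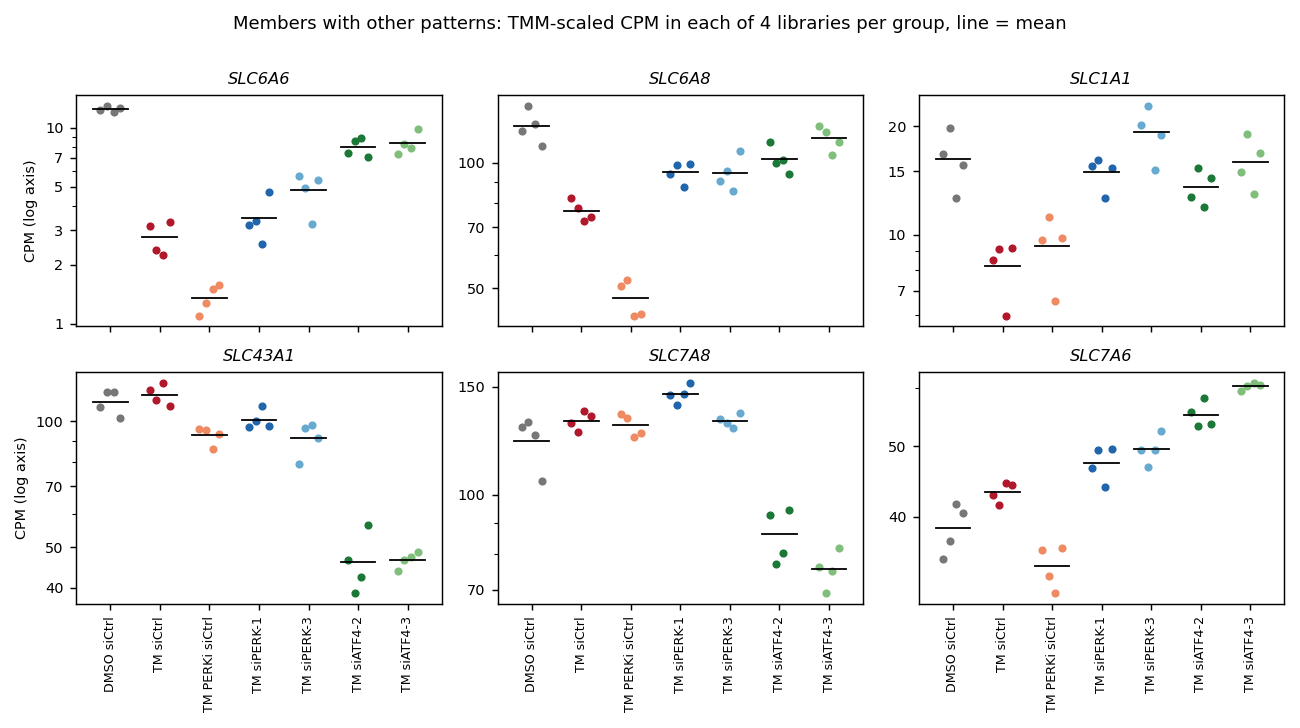
TMM-scaled CPM (log axis) of 6 members with other patterns, in each of 4 libraries per group, with the group mean as a line. SLC6A6 is at 12.1 to 12.9 CPM in DMSO siCtrl, 1.097 to 1.57 with the inhibitor and 7.05 to 9.79 with the ATF4 oligos, and SLC43A1 is at 38.8 to 56.4 CPM with the ATF4 oligos against 102 to 124 in both siCtrl groups without inhibitor.

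Inhibitor and PERK siRNAs are meant to act on the same kinase, so they were compared directly with the mean of both oligos, all under tunicamycin. The members differed in both directions, with 9 of 34 tested higher and 11 lower with the inhibitor, 58.8% where 51.9% of all genes tested were called. SLC7A11 was 0.84 ± 0.15 higher, SLC1A4 0.50 ± 0.08, SLC6A9 0.49 ± 0.12, SLC7A1 0.43 ± 0.05 and SLC38A1 0.34 ± 0.04 on the log2 scale. SLC38A4 was 1.34 ± 0.28 higher with the inhibitor. SLC3A2 differed by 0.21 ± 0.08 with overlapping groups, and this call was lost without TM PERKi siCtrl replicate 1, 2 or 3 or siPERK-3 replicate 4 (adjusted p = 0.0515 to 0.0654). SLC7A5 was higher by 0.37 ± 0.11.

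Of the 7 members that tunicamycin had lowered, SLC1A1, SLC6A16, SLC6A3, SLC6A6 and SLC6A8 were lower with the inhibitor than with the siRNAs. SLC1A3 and SLC38A3 were not called. SLC6A16 and SLC6A3 were barely expressed, at means of 0.064 and 0.043 RPKM with the inhibitor, and did not exceed the count cutoff in all libraries. The SLC6A3 call was lost without TM PERKi siCtrl replicate 3 (adjusted p = 0.0512). SLC6A6 was lower by 1.55 ± 0.19, SLC6A8 by 1.00 ± 0.07 and SLC1A1 by 0.88 ± 0.15 on the log2 scale. SLC7A6 was lower by 0.50 ± 0.05, SLC38A7 by 0.43 ± 0.06, SLC43A2 by 0.37 ± 0.05 and SLC36A1, a proton-coupled carrier of the lysosome, by 0.67 ± 0.13. SLC1A1 differed from TM siCtrl by 0.16 ± 0.18 with the inhibitor (adjusted p = 0.527) and rose with both oligos. SLC38A10 showed no detectable difference between the inhibitor and the siRNAs (-0.07 ± 0.05, adjusted p = 0.25, 95% interval -0.16 to 0.03). Nor did SLC1A5 (0.09 ± 0.09, adjusted p = 0.443, interval -0.09 to 0.27), although with only the compared groups in the fit it was called (0.09, adjusted p = 0.0474). The inhibitor was given to cells with the non-targeting siRNA, so oligo and agent differ together in this comparison.

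**Figure D5:**
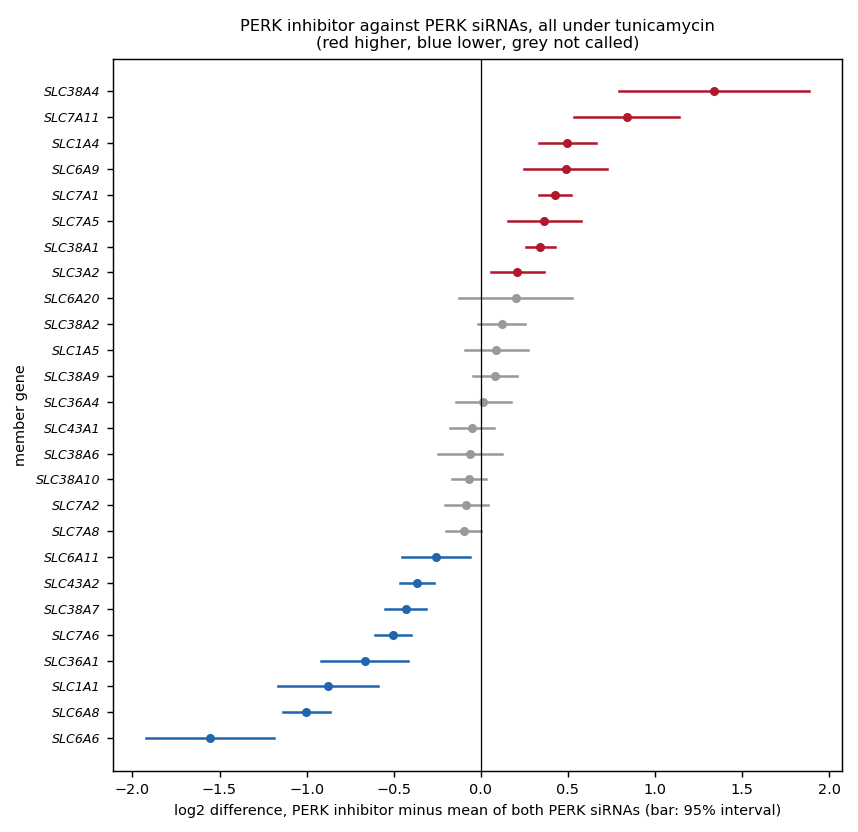
Log2 difference between the PERK inhibitor and the mean of both PERK siRNAs for the 26 members whose mean log2 CPM was 1 or more (point: estimate; bar: 95% interval; red higher, blue lower, grey not called). SLC6A6 lies at -1.55 and SLC38A4 at 1.34, and the interval of SLC38A10 spans -0.16 to 0.03.

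Genes that work with these carriers were counted from lists. Of 20 enzymes of amino acid synthesis and one-carbon metabolism, 15 rose and 4 fell with tunicamycin, and 15 were lower and 4 or 5 higher with siATF4-2 or siATF4-3. Over all genes tested 34.3% rose and 34.7% fell with tunicamycin, 27.2% were lower and 28.4% higher with siATF4-2, and 30.7% were lower and 31.2% higher with siATF4-3, which is the background for each list. ALDH1L2 (1.65 ± 0.15) and GOT1 (1.19 ± 0.07) rose most and SHMT1 (-1.73 ± 0.08) and MTHFD1 (-1.60 ± 0.06) fell most with tunicamycin on the log2 scale. ASNS, which makes asparagine, was lower by 2.82 ± 0.09 and PHGDH, the entry enzyme of serine synthesis, by 2.56 ± 0.10 with siATF4-3. Of 20 cytosolic aminoacyl-tRNA synthetases 12 rose and 5 fell with tunicamycin, and 13 were lower and 6 higher with siATF4-3.

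A list of 15 genes held carriers of other SLC families and also near-identical copies of members, such as SLC6A10P and SLC7A5P2. Of these 15, 11 were tested, 4 rose and 6 fell with tunicamycin, and with siATF4-3 2 were lower and 3 higher. SLC6A10P was among those that fell and SLC7A5P2 among those lower with siATF4-3, so the list is not separate from the members. SLC16A10, an aromatic amino acid carrier, fell by 1.58 ± 0.11 with tunicamycin. Of 24 genes that sense amino acids for mTORC1 or GCN2, 3 rose and 13 fell, with SESN2, the leucine-binding Sestrin, raised by 2.20 ± 0.14 and lower by 2.75 ± 0.15 with siATF4-3. Of 11 transcription factors of the amino acid response, 10 rose and 1, MYC, fell (-1.17 ± 0.11). DDIT3 rose by 3.79 ± 0.17 and ATF3 by 3.06 ± 0.16 with tunicamycin, and with the inhibitor they were a further 1.31 ± 0.14 and 1.36 ± 0.14 above TM siCtrl. The median log2 changes with tunicamycin were 0.55, 0.56, -0.24, -0.23 and 1.32 for the enzyme, synthetase, carrier, sensor and factor lists, against 0.01 over all genes tested.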

How the data were processed

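Strand-specific RNA libraries of LNCaP cells were sequenced, per the labels' protocols. The authors deposited raw counts of reads per gene in 6 tables of 25370 lines, with an exon length for each gene. Per the submitters' processing notes the build was hg19 and the tools included featureCounts 1.5.0-p1, TopHat2 2.1.0 and, in version 1.10.1, DESeq2. Neither their settings nor the use of strand in counting is stated in the labels. The repeated TM siCtrl columns held 0 differing values and were used once, and 1 unnamed line with 0 counts was left out. Hg19 coordinates are the deposited ones, and promoter windows are RefSeq's for GRCh38.p14.

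Counts were tested with edgeR 4.0.16 in R 4.3.3: TMM factors, filterByExpr by group (minimum count 10, minimum total 15), group means, robust quasi-likelihood test (two-sided), all 28 libraries in 1 fit. This left 14314 genes. P-values were adjusted by Benjamini-Hochberg over all genes tested in each of 11 comparisons and called at an adjusted p under 0.05, and every adjusted p in the text is from such a fit unless another tool is named. SE is the absolute log2 change over the square root of F, and 95% intervals take the estimate as normal. The procedure was tested on simulated data. Alternatives were DESeq2's size factors, upper-quartile factors, no filter, a minimum count of 30, a replicate block, limma-voom (limma 3.58.1), DESeq2 1.42.0, only the compared groups, and leaving out each library.

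Every tested member is named, and 1 untested member is not reported here. Members whose mean log2 CPM was 1 or more and that had a called log2 change of at least 1 with tunicamycin, or of at least 0.75 between tunicamycin groups, were given by library, with SLC3A2, SLC7A5 and SLC7A11 in every group, and up to 2 called genes per direction from each list. Some list genes that this rule names are left out for length, and SLC6A8, SLC7A6, SLC38A1 and SLC38A2 were given by library in further comparisons after their values were seen. The members, lists and rule were chosen with earlier results of these data known.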

Additional observations from a re-analysis of the deposited data

Results flagged for a closer look

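Of 182 sets of 4 libraries (26 members whose mean log2 CPM was 1 or more, in 7 groups), 5 held a library that stood apart from the other 3 by Dixon's test, where chance flags about 1 in 20 sets. SLC3A2 was at 1778 CPM in TM PERKi siCtrl replicate 4 and at 1894 to 1912 in the others, all above TM siCtrl. SLC7A11 was at 764 CPM in TM siPERK-1 replicate 2 and at 652 to 668 in the others. SLC38A2 was at 363 CPM in DMSO siCtrl replicate 4 and at 260 to 276 in the others, and that library had the highest level of 9 of the 10 members that tunicamycin raised by 2-fold or more. SLC36A4 was at 12.7 CPM in TM siCtrl replicate 1 (11.69 to 11.71 in the others) and at 13.2 CPM in TM PERKi siCtrl replicate 1 (11.1 to 11.2 in the others).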

How the results depend on the processing

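Of 197 called member changes in 11 comparisons, 33 lost the call in at least 1 of the alternatives of their comparison, which were 8 other fits and the fits without each library of the groups compared (16 to 24 in all). Of the other 164, 153 were tested in all of these and kept direction and call, and 11 kept them where tested but were too low to be tested in at least 1. Counts of called members stayed within 1.5 times the reported count except between the PERK oligos, where the count of 1 became 0 without the filter and with DESeq2, 2 with limma-voom and with only the compared groups, 5 with the replicate block, and 0 to 3 leaving out a library. Leaving out a library gave 25 to 27 calls for tunicamycin, 11 to 15 for the inhibitor, 9 to 12 for siPERK-1, 14 to 16 for siPERK-3, 22 to 26 for siATF4-2 and 22 to 25 for siATF4-3. Deviations of same-numbered libraries correlated at -0.005 to 0.302 over 84 pairs (median 0.0865), with 30 over 0.1. In 73 pairs the own number was the best of the 4 libraries of the other group, so most same-numbered libraries deviated together. No label says that a number marks a shared experiment. The reported fit has no block and leaves any such shared deviation in its spread. With the replicate block the called members numbered 28 for tunicamycin, 15 for the inhibitor, 14 and 19 for the PERK oligos and 28 and 26 for the ATF4 oligos, and the split between the ATF4 oligos was 11 higher and 3 lower in place of 11 and 1. Differences near 0 changed sign: leaving out a library, SLC7A5 with the inhibitor ranged from -0.0208 (without TM PERKi siCtrl replicate 1) to 0.0501, with -0.0044 and -0.0144 without TM siCtrl replicates 2 and 4, and SLC7A11 with both ATF4 oligos against DMSO siCtrl ranged from -0.0589 (without siATF4-2 replicate 4) to 0.2218, with -0.0262 without siATF4-3 replicate 4. The cause was not tested. For members at about 1 CPM depth limits the precision, and 25 members were too low to test.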
